A study of Homo sapiens with 4 samples.

Results

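Transcripts of 7 matrix metalloproteinase (MMP) genes and 3 genes of their tissue inhibitors (TIMPs) were followed in Daoy cells, an established human medulloblastoma line, with and without depletion of PELP1. The genes were taken by symbol: MMP1, MMP2, MMP9, MMP14, MMP15, MMP16, MMP24, TIMP1, TIMP2 and TIMP3. All 10 of them had a row among the 23228 gene rows, and all 10 passed the filter on low counts. RNA was sequenced from cells stably transduced with a lentiviral PELP1 shRNA (n = 2 libraries) and from cells with a lentiviral control shRNA (n = 2 libraries), both grown in medium with serum. PELP1 is a scaffold protein and coregulator of nuclear receptors. The labels name a single PELP1 shRNA, and neither whether the cells were a pool or a clone nor whether the duplicates were separate cultures is given in the sources used here. The p-values thus reflect just the variation among 4 libraries, and that variation may be technical.

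MMPs are zinc endopeptidases that cut collagens and other matrix and surface proteins. They are made as inactive precursors whose propeptide must be removed, and TIMPs block the active enzymes. MMP1 is an interstitial collagenase, and MMP2 and MMP9 are the gelatinases. MMP14, MMP15, MMP16 and MMP24 are membrane-type enzymes held at the cell surface by a transmembrane segment. On that surface MMP14 binds TIMP2, which holds the MMP2 precursor in place for cleavage by a second MMP14 molecule, so TIMP2 is both an inhibitor of these enzymes and a partner in MMP2 activation. TIMP1 inhibits membrane-type enzymes poorly. TIMP3 binds to the matrix and also inhibits several ADAM and ADAMTS proteases.

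The upstream stretch of 4 of these genes is shown because it holds the sequence context of members that differed in opposite directions below. Of the 10 members, 5 (MMP14, MMP15, MMP24, TIMP1 and TIMP3) matched a promoter in the RefSeq table of build GRCh38.p14, and MMP1, MMP2, MMP9, MMP16 and TIMP2 did not. The 250 bases before the annotated start were searched on both strands. Motifs searched were the AP-1 element TGAGTCA, the element TGAGTAA that is known as the AP-1 site of the TIMP1 promoter and was added after that sequence had been read, the GC box GGGCGG and the CCAAT box CCAAT. Each sequence is on the plus strand, 5′ to 3′, and capitals mark the matches to these motifs or to their reverse complements. No printed matches overlap.
MMP14, chr14:22836335-22836584: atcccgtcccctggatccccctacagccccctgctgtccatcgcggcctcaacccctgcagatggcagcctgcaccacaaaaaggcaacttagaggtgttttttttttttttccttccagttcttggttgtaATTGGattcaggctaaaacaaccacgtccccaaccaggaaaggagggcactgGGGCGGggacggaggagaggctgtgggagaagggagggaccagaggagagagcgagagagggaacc
TIMP1, chrX:47582186-47582435: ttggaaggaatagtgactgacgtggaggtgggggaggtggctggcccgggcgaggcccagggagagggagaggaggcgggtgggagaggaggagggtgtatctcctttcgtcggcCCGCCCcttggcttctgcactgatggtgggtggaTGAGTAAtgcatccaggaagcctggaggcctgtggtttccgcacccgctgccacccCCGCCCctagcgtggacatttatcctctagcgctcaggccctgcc
TIMP3, chr22:32801455-32801704: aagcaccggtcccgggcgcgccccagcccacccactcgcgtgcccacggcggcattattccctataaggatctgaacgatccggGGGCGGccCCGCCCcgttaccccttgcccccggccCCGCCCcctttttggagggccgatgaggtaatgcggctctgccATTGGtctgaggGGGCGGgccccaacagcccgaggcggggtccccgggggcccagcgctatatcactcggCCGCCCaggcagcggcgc
MMP15, chr16:58025504-58025753: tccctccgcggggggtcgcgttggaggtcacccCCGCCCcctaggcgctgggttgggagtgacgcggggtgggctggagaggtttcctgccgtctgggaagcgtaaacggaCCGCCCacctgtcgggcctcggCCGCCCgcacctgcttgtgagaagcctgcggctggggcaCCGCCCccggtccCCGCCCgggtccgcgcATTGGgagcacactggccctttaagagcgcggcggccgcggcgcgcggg

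The 5 promoters differed in GC content and in the number of GC boxes. In rising order, GC content was 56.8% upstream of MMP14, 64.8% of TIMP1, 72.4% of TIMP3, 74.8% of MMP15 and 77.6% of MMP24. The median over all 35116 promoters of the table was 58.0%. Any relation of GC content to the direction of change was not tested. MMP15 and TIMP3 had 5 GC boxes each, MMP24 had 3, TIMP1 had 2 and MMP14 had 1. A GC box was thus found in 5 of the 5 promoters, and in 42.6% of all promoters. A CCAAT box was found upstream of MMP14, MMP15 and TIMP3, and in 32.0% of all promoters. TGAGTAA was found upstream of TIMP1, from 101 to 95 bases before the start, and in 2.21% of all promoters. TGAGTCA was found in 0 of the 5 and in 4.20% of all promoters. These matches describe letters in a window and are not measured binding sites.

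PELP1 itself stood at 55.6 and 49.7 CPM in the PELP1 shRNA libraries, against 168 and 185 CPM in the control shRNA libraries (log2 fold change −1.75 ± 0.05, SE). CPM values were computed from the deposited counts with library sizes scaled by TMM factors. Libraries held 26760085 and 29221640 counts in genes with the PELP1 shRNA and 24052542 and 26629578 with the control shRNA. Of 13 cerebellar granule and neural progenitor markers, SFRP1 (143 and 148 CPM with the PELP1 and control shRNA), PTCH1, ZIC1, ZIC2, PAX6 and GLI2 were well detected. ATOH1 and NEUROD1, which define granule progenitors and their descendants, had at most 6 counts in any library. Of the 11 tested, 5 were higher at the threshold given below (OTX2, ZIC2, PAX6, GLI1 and MYCN). Another 3 were lower (SOX2, GLI2 and PTCH1) and 3 were not called (SFRP1, ZIC1 and NES). The 8 fibroblast and mesenchymal markers summed to 3927 and 4216 CPM with the PELP1 shRNA and 5044 and 5364 CPM with the control shRNA, mostly COL1A1 and COL1A2. They went both ways, with 3 higher (COL1A1, DCN and LUM) and 5 lower: COL1A1 averaged 3725 and 3284 CPM with the PELP1 and control shRNA, and COL1A2 averaged 132 and 1495 CPM. The 7 epithelial markers summed to 840.2 and 862 CPM against 569.7 and 584 CPM, mostly KRT18. Of the 6 tested, 5 were higher (EPCAM, KRT8, KRT18, ESRP1 and ELF3), 0 lower and 1 (KRT19) not called at the threshold given below. Among all genes tested, 28.6% were higher and 29.5% lower. CDH1 was not tested, with 0 counts in both PELP1 shRNA libraries and 2 and 3 counts in the control shRNA libraries. The part of these shifts in the results below was not tested. In bulk RNA, fewer cells of a type and less RNA per cell cannot be told apart.

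Of the 10 members, 9 passed the threshold, 3 higher (MMP15, TIMP2 and TIMP3) and 6 lower (MMP1, MMP2, MMP9, MMP14, MMP16 and TIMP1). MMP24 did not pass it. The threshold was a false discovery rate (FDR) of 0.05 in the quasi-likelihood test of edgeR, adjusted over all 14972 genes tested. The background was high: 58.1% of all genes tested passed it, made up of 28.6% of all genes tested called higher and 29.5% called lower. In counts, 4276 genes were higher and 4424 lower, or 5681 and 3305 when scaled by library size alone. A share of calls therefore says little about this family. Of the 5 members with a mean of at least 100 CPM, 5 passed, against 73.0% of all genes at that level, and of the 4 members under 10 CPM 3 passed, against 44.9%. Size separated the members more than the calls did. The members were chosen with earlier results of these data known, so the sizes below only describe them and are no independent evidence about the family. The median absolute log2 fold change was 0.90 over the members and 0.26 over all genes tested, and 5 of the 10 members passed a test against a 1.5-fold change, which 9.63% of all genes tested passed. Those 5 were all proteases (MMP1, MMP9, MMP14, MMP15 and MMP16). The median log2 fold change was −1.17 over the 7 MMP genes and 0.48 over the 3 TIMP genes, beside 0.0022 over all genes tested.

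**Figure D1:**
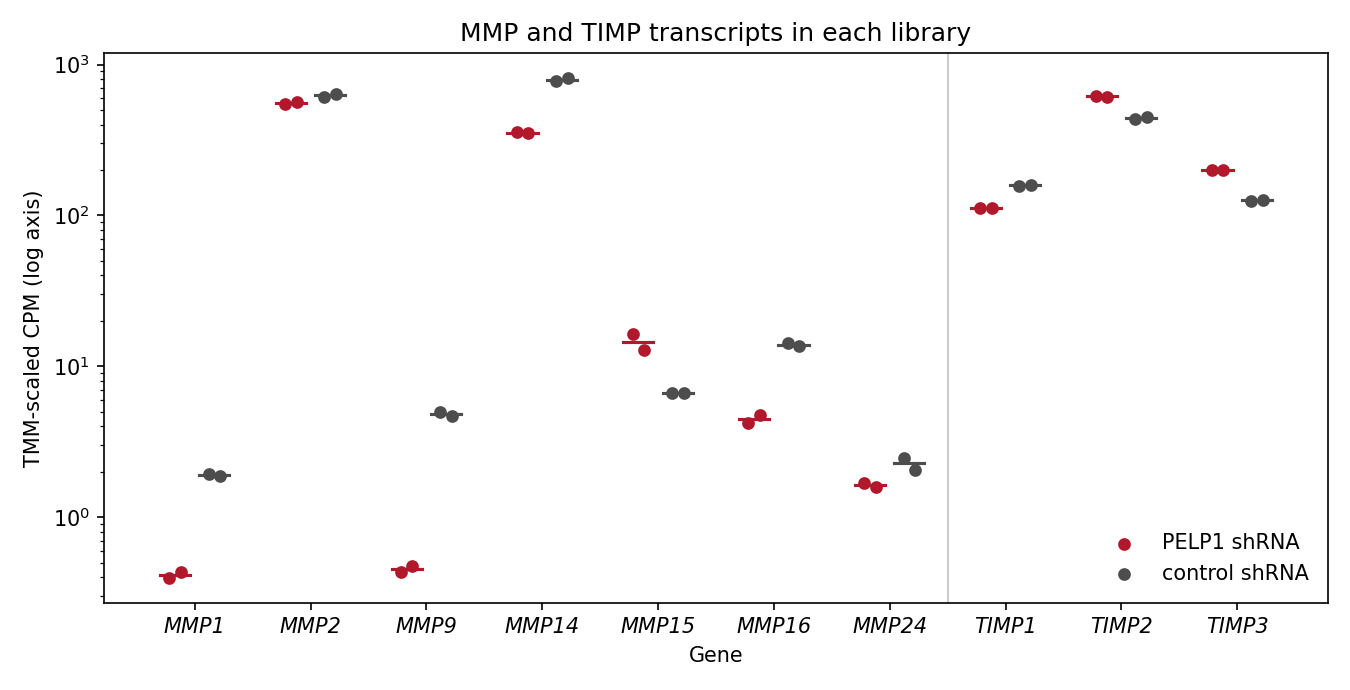
TMM-scaled CPM (log axis) of each member in the PELP1 shRNA libraries (red, left of each pair) and the control shRNA libraries (grey, right); points are single libraries and bars are means of 2. MMP9 shows the widest gap, at 0.43 and 0.47 CPM against 4.96 and 4.66 CPM, and MMP2 the narrowest on this axis.

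Both gelatinases fell, by very different amounts. MMP9, the inducible gelatinase, had 13 and 13 counts (0.431 and 0.472 CPM) with the PELP1 shRNA, against 116 and 120 counts (4.96 and 4.66 CPM) with the control shRNA. Both PELP1 shRNA libraries were low and the groups lay far apart. The level fell to 9.45% of control, a log2 fold change of −3.40 ± 0.25 (SE, FDR = 1.27e-18), and 0.421% of all genes tested had a larger absolute change. The ratio of summed counts was 0.0937 (95% counting interval 0.06 to 0.141, which covers counting error only). MMP9 lies on chromosome 20 (hg19, 44637547 to 44645200, plus strand), and 430 of its 2336 exonic bases lie opposite an antisense transcript. Whether the counting used strand is not stated in the labels, so reads from such a transcript cannot be told apart from those of the gene.

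MMP2, the constitutive gelatinase, had 550.2 and 562 CPM with the PELP1 shRNA, against 612 and 638 CPM with the control shRNA. The groups did not overlap, but the difference was small: MMP2 stood at 88.9% of control (log2 fold change −0.17 ± 0.03, SE, FDR = 2.72e-05), and 64.4% of all genes tested changed by more. Scaled by library size alone, its log2 fold change was −0.0791 (adjusted p = 0.0388), less than the main value by over 1.5 times. MMP2 lies on chromosome 16 (hg19, 55423612 to 55540603, plus strand).

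MMP1, which cleaves native fibrillar collagen, was scarce. It had 12 and 12 counts with the PELP1 shRNA, against 45 and 48 counts with the control shRNA, or 0.398 and 0.435 CPM against 1.93 and 1.87 CPM. It fell 4.52-fold (log2 fold change −2.18 ± 0.33, SE, FDR = 5.12e-08), with a ratio of summed counts of 0.22 (95% counting interval 0.134 to 0.347). Of its 2738 exonic bases, 223 lie opposite the pseudogene WTAPP1. MMP1 belongs to a run of 9 MMP genes on the minus strand of chromosome 11 (hg19, MMP1 at 102660132 to 102668891). MMP7, the matrilysin at one end of that run, was the other gene of the run with enough counts to test, with 15 and 18 counts in the PELP1 shRNA libraries and 24 and 34 in the control shRNA libraries. The other 7 genes of the run, among them the stromelysins MMP3 and MMP10, had at most 5 counts in any library.

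The membrane-type genes did not move together. Of the 4, 2 fell, 1 rose and 1 did not pass the threshold, which 29.5% of all genes tested passed as lower and 28.6% as higher. MMP14, the main surface collagenase and the activator of MMP2, had 355 and 351 CPM with the PELP1 shRNA, against 772 and 814 CPM with the control shRNA. Replicates lay close together and both PELP1 shRNA libraries were low. MMP14 fell to 44.5% of control (log2 fold change −1.17 ± 0.04, SE, FDR = 2.81e-38), and 6.19% of all genes tested had a larger absolute change. It lies on chromosome 14 (hg19, 23305769 to 23318250, plus strand), with 0 of its 4623 exonic bases shared with another annotated gene.

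MMP16, a membrane-type enzyme expressed in brain, had 4.21 and 4.75 CPM with the PELP1 shRNA, against 14.2 and 13.6 CPM with the control shRNA. It fell 3.11-fold (log2 fold change −1.64 ± 0.12, SE, FDR = 6.18e-19). MMP15 went the other way. It had 492 and 355 counts (16.3 and 12.9 CPM) with the PELP1 shRNA, against 156 and 172 counts (6.67 and 6.68 CPM) with the control shRNA. The PELP1 shRNA libraries lay apart from each other, but both lay above the control shRNA libraries. MMP15 rose 2.19-fold (log2 fold change 1.13 ± 0.11, SE, FDR = 3.54e-13).

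MMP24, a membrane-type enzyme of the nervous system, had 51 and 44 counts (1.69 and 1.60 CPM) with the PELP1 shRNA, against 58 and 53 counts (2.48 and 2.06 CPM) with the control shRNA. Its log2 fold change was −0.46 ± 0.23 (SE, FDR = 0.084), and its adjusted p was from 0.0762 to 1 in the alternatives that tested it, all but the filter at 5 CPM. The groups did not overlap. The counting interval of its ratio, 0.548 to 0.966, was wide and lay below 1, but it covers counting error only. Opposite-strand transcripts cover 968 of its 4376 exonic bases, most of them from MMP24OS.

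**Figure D2:**
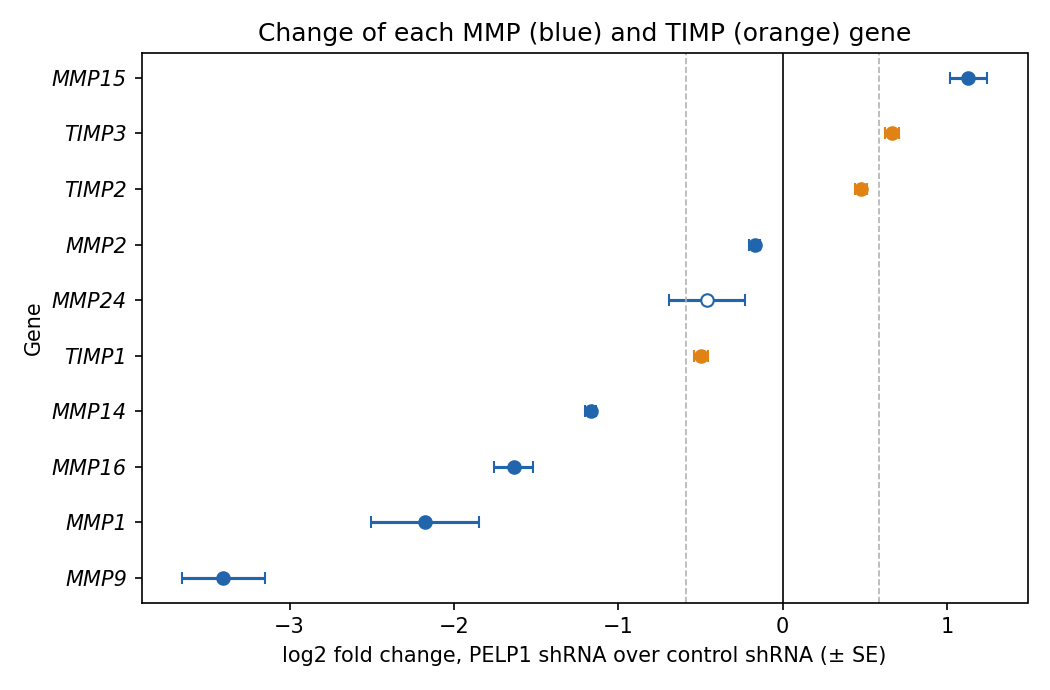
Log2 fold change (PELP1 shRNA over control shRNA, ± SE) of each member, MMP genes in blue and TIMP genes in orange; filled points passed an FDR of 0.05, the open point (MMP24) did not, and dashed lines mark a 1.5-fold change. The order runs from MMP15 at 1.13 to MMP9 at −3.40, and the 3 TIMP genes lie between 0.67 and −0.50.

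The inhibitors changed less, and not all in one direction. TIMP2, the partner of MMP14 in MMP2 activation, had 621 and 612 CPM with the PELP1 shRNA, against 437 and 449 CPM with the control shRNA. It rose 1.39-fold (log2 fold change 0.48 ± 0.03, SE, FDR = 5.34e-19). TIMP3, the matrix-bound inhibitor, had 199 and 200.1 CPM against 125 and 127 CPM in the control shRNA libraries. It rose 1.59-fold (log2 fold change 0.67 ± 0.04, SE, FDR = 3.69e-22). Replicates nearly coincided for both genes and the groups did not overlap.

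TIMP1, a secreted inhibitor that also acts as a growth factor for several cell types, had 112.3 and 111.6 CPM with the PELP1 shRNA, against 156 and 159.9 CPM with the control shRNA. It fell to 70.8% of control (log2 fold change −0.50 ± 0.04, SE, FDR = 7.78e-16). None of the 3 TIMP genes passed the test against a 1.5-fold change, where the adjusted p was 0.0675 for TIMP3 and 1 for TIMP1 and TIMP2. With an assumed biological variation of 20% all 3 missed the threshold, with adjusted p of 0.39 for TIMP1, 0.422 for TIMP2 and 0.161 for TIMP3.

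TIMP1 and TIMP3 lie within synapsin genes, on the opposite strand. TIMP1 (hg19 chromosome X, 47441807 to 47446188) lies inside SYN1 and TIMP3 (hg19 chromosome 22, 33197691 to 33259028) inside SYN3, and both share 0 exonic bases with their host. SYN1, a synaptic vesicle protein gene looked at because of this position and not by a fixed rule, had 106 and 104 counts with the PELP1 shRNA, against 26 and 33 counts with the control shRNA. It rose 3.02-fold (FDR = 5.51e-09), whereas TIMP1 within it fell. SYN3 had 98 and 77 counts against 42 and 63 counts in the control shRNA libraries (log2 fold change 0.50 ± 0.20, SE, FDR = 0.0307), in the direction of TIMP3. TIMP2 (hg19 chromosome 17, 76849059 to 76921469, minus strand) shares 224 of its 6209 exonic bases with CEP295NL on its own strand and 367 with an antisense transcript.

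Levels were compared between genes as CPM per kilobase of exon. MMP2 and MMP14 made up 97.5% and 97.9% of the summed MMP level with the PELP1 shRNA, and 98.0% and 98.2% with the control shRNA. With the PELP1 shRNA the mean levels were 118 for MMP2, 99.3 for TIMP2, 77.4 for TIMP1, 76.3 for MMP14 and 43.4 for TIMP3. With the control shRNA they were 172 for MMP14, 133 for MMP2, 109 for TIMP1, 71.3 for TIMP2 and 27.4 for TIMP3. MMP14 thus stood at rank 4 of the 10 in PELP1 shRNA cells and at rank 1 in control shRNA cells. Its neighbour in PELP1 shRNA cells, TIMP1, had 77.6 and 77.2, close to the 76.8 and 75.9 of MMP14, and with the longest transcript as length TIMP1 averaged 102 and MMP14 averaged 91.6. The other 5 members had mean levels of at most 3.45 in PELP1 shRNA cells and 2.06 in control shRNA cells.

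The balance between the groups of genes can be read within each library, where scaling plays no part. There were 0.571 and 0.574 MMP14 counts per TIMP2 count with the PELP1 shRNA, against 1.77 and 1.81 with the control shRNA. MMP2 counts per TIMP2 count were 0.885 and 0.919, against 1.40 and 1.42. MMP14 counts per MMP2 count were 0.645 and 0.624, against 1.26 and 1.28. Each of these 3 ratios was lower in both PELP1 shRNA libraries than in either control shRNA library. MMP2 counts per TIMP1 count went the other way, at 4.9 and 5.04 with the PELP1 shRNA, against 3.92 and 3.99 with the control shRNA. Within the inhibitors, TIMP3 counts per TIMP1 count were 1.77 and 1.79, against 0.801 and 0.791. Summed per kilobase, the 3 TIMP genes stood at 1.11 and 1.10 times the 7 MMP genes with the PELP1 shRNA, and at 0.678 and 0.663 times with the control shRNA. With 2 libraries a group an exact permutation test cannot reach the threshold, so these ratios are given as values.

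**Figure D3:**
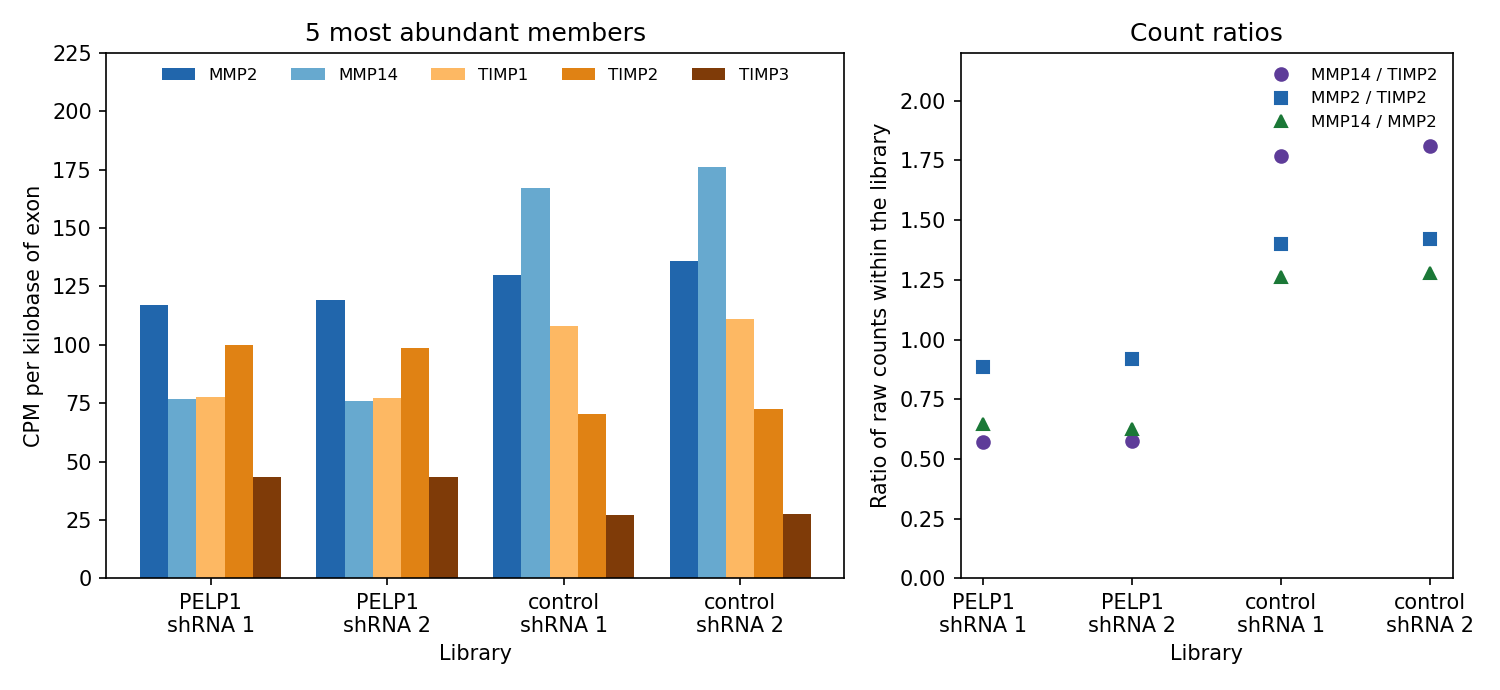
Left, CPM per kilobase of exon of the 5 most abundant members in each library; right, ratios of raw counts within each library, PELP1 shRNA libraries first. MMP14 is the tallest bar in both control shRNA libraries and stands below MMP2 and TIMP2 in both PELP1 shRNA libraries, and MMP14 per TIMP2 is 0.571 and 0.574 against 1.77 and 1.81.

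The remaining MMP and TIMP genes had few counts. Of 18, 6 could be tested: 2 rose, 3 fell, 1 missed the threshold, and the median log2 fold change was −0.04. For comparison, 28.6% of all genes tested rose and 29.5% fell past the threshold. MMP11, stromelysin-3, rose (log2 fold change 0.94 ± 0.20, SE, FDR = 5.64e-05), with 107 and 94 counts in the PELP1 shRNA libraries and 41 and 48 in the control shRNA libraries. TIMP4 rose (0.53 ± 0.20, SE, FDR = 0.0217), and MMP7 fell (−1.04 ± 0.35, SE, FDR = 0.00816). MMP11 missed the threshold in the test against a 1.5-fold change (adjusted p = 0.107) and at an assumed variation of 20% (0.0623). The MMP7 and TIMP4 calls rest on few counts. MMP7 missed the threshold with DESeq2 (adjusted p = 0.157), without PELP1 shRNA replicate 1 (0.0972) and without control shRNA replicate 2 (0.138). TIMP4 missed it with DESeq2 (adjusted p = 0.22) and whenever any 1 library was left out (0.0648 to 0.0851). Both also missed it in the test against a 1.5-fold change (adjusted p = 0.243 for MMP7 and 1 for TIMP4) and at 20% (0.12 and 0.468), and TIMP4 at 10% as well (0.0673). The 12 genes under the filter had at most 5 counts in any library, and 3 of them (MMP23A, MMP26 and MMP27) had 0 counts in all 4.

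Proteases and receptors of MMP precursor activation moved both ways. Calls were higher for 1 of the 9 genes tested, lower for 4 and absent for 4 (median log2 fold change −0.27). All genes tested gave 28.6% higher and 29.5% lower calls. PLAT, the tissue plasminogen activator, had 60.4 and 60.8 CPM with the PELP1 shRNA, against 277 and 278 CPM with the control shRNA (log2 fold change −2.19 ± 0.04, SE, FDR = 9.14e-49). PLAUR, the urokinase receptor, had 50.1 and 43.1 CPM, against 209 and 215 CPM with the control shRNA (FDR = 4.29e-40). PCSK6, a proprotein convertase, rose 2.02-fold to 32.0 ± 1.21 CPM with the PELP1 shRNA, against 15.8 ± 1.35 CPM with the control shRNA (SD, n = 2 each). FURIN, the convertase that processes the MMP14 precursor, lay outside the naming rule and was looked at for this role: it had 201 and 194 CPM with the PELP1 shRNA, against 267 and 284 CPM with the control shRNA (log2 fold change −0.48 ± 0.04, SE, FDR = 6.37e-17).

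Other inhibitors, clearance receptors and docking proteins moved both ways. Among 16 tested genes there were 3 higher and 8 lower calls, 5 genes missed the threshold, and the median log2 fold change was −0.23. Beside these stand 28.6% higher and 29.5% lower calls over all genes tested. THBS2, thrombospondin-2, which promotes clearance of MMP2, had 258 and 251 CPM with the PELP1 shRNA, against 103 and 111 CPM with the control shRNA (log2 fold change 1.25 ± 0.04, SE, FDR = 7.71e-36). PCOLCE, an enhancer of procollagen processing that carries a TIMP-like domain, fell to 49.8 and 49.4 CPM, against 113 and 119.9 CPM with the control shRNA. CLDN1, a claudin that can bind membrane-type enzymes, rose 2.06-fold (FDR = 2.05e-23). RECK, a membrane-anchored inhibitor of MMP2, MMP9 and MMP14 named here for its role, fell by 0.69 on the log2 scale (FDR = 1.25e-07), with 7.99 and 7.73 CPM against 13.0 and 12.4 CPM.

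Among ADAM and ADAMTS proteases, several of which TIMP3 inhibits, 1 of the 10 tested rose, 7 fell and 2 missed the threshold (median log2 fold change −0.61). The shares over all genes tested were 28.6% higher and 29.5% lower. ADAMTS5, an aggrecanase, had 3.61 and 2.72 CPM with the PELP1 shRNA, against 37.3 and 35.1 CPM with the control shRNA (log2 fold change −3.50 ± 0.11, SE). ADAMTS4, named here as the 1 that rose, had a log2 fold change of 0.60 ± 0.20 (SE, FDR = 0.00959). ADAMTS1 fell to 20.7 and 21.8 CPM, against 200.5 and 198 CPM with the control shRNA. ADAMTS2, a procollagen peptidase, had 5 and 1 counts against 31 and 35 counts in the control shRNA libraries. Its scaled count ratio was 0.0773 (counting error alone allows 0.0274 to 0.177).

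MMP substrates gave 11 higher and 16 lower calls among 32 tested genes, 5 missed the threshold, and the median log2 fold change was −0.34. Of all genes tested, 28.6% were called higher and 29.5% lower. The 3 with the largest changes were the proteoglycan BGN and the collagen chains COL1A2 and COL3A1, and all fell, with log2 fold changes of −3.60, −3.50 and −2.85. COL1A2 had 139 and 125 CPM with the PELP1 shRNA, against 1467 and 1523 CPM with the control shRNA. Type IV collagen, a gelatinase substrate of basement membranes, went the other way, with COL4A2 at 1070.4 ± 10.9 CPM with the PELP1 shRNA and 704 ± 21.5 CPM with the control shRNA (SD, n = 2 each). COL4A2 was chosen after its values were seen.

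Transcription factors with known roles at MMP promoters gave 5 higher and 14 lower calls among 28 genes, and 9 missed the threshold (median log2 fold change −0.14). The share of all genes tested was 28.6% for higher calls and 29.5% for lower calls. Of the 7 genes of the FOS and JUN family, whose dimers bind AP-1 elements, 6 fell and 1 (JUND) rose. This subgroup was counted after the values were seen, so its count is no test of the family. JUN had 143 and 142 CPM with the PELP1 shRNA, against 317 and 324 CPM with the control shRNA (log2 fold change −1.17 ± 0.04, SE, FDR = 3.21e-36). FOS had 162 and 118 counts with the PELP1 shRNA, against 258 and 231 with the control shRNA, and ETS2 fell by 1.35 on the log2 scale (FDR = 1.55e-30). Of 5 NF-κB subunit genes, 2 fell, 0 rose and 3 missed the threshold in the edgeR test. The count of higher NF-κB genes was also 0 at an unadjusted p of 0.05, with DESeq2 and with limma-voom.

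Leukocytes are a known source of MMP9. The 7 macrophage and leukocyte markers summed to 62.2 and 65.2 CPM with the PELP1 shRNA and 61.6 and 65.2 CPM with the control shRNA, nearly all from CD68. PTPRC, the pan-leukocyte gene, had 9 and 5 counts with the PELP1 shRNA and 6 and 6 with the control shRNA, and ITGAM had 10 and 10 against 2 and 5. Of the 4 markers tested, 0 were higher, 1 (LYZ) was lower and 3 were not called. Over all genes tested, 28.6% were higher and 29.5% lower. LYZ had 16 and 7 counts with the PELP1 shRNA, against 39 and 11 with the control shRNA (FDR = 0.0422, edgeR), and its groups overlapped. The 3 not called had log2 fold changes of 0.48 (CSF1R), 0.36 (CD14) and −0.0077 (CD68). The 5 endothelial markers summed to 35.0 and 36.1 CPM with the PELP1 shRNA and 81.0 and 85.4 CPM with the control shRNA, most of it TIE1. Of these 5, 2 were higher (PECAM1 and VWF), 2 lower (CDH5 and TIE1) and 1 (KDR) not called, beside the same shares over all genes tested. PECAM1 had 57 and 49 counts with the PELP1 shRNA, against 11 and 7 with the control shRNA. The part of these marker shifts in the MMP and TIMP values was not tested.

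**Figure D4:**
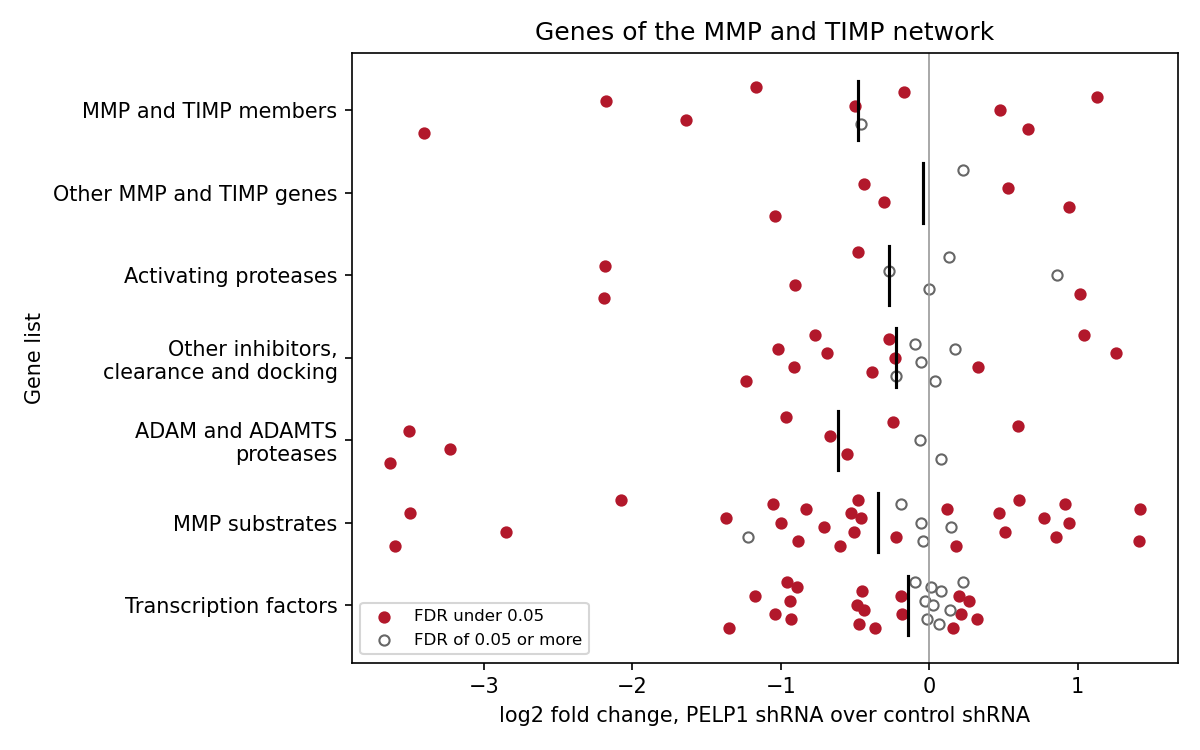
Log2 fold change (PELP1 shRNA over control shRNA) of every tested gene of the 10 members and of 6 lists of related genes; filled points passed an FDR of 0.05, open points did not, and black bars are medians. The medians lie between −0.61 (ADAM and ADAMTS proteases) and −0.04 (other MMP and TIMP genes), and each list holds points on both sides of 0.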

How the data were processed

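RNA was measured in 4 Daoy libraries. Per the labels' protocols, libraries were made with a TruSeq total RNA kit and read as 50 bp single ends. The submitters' processing notes name TopHat2 2.0.8b, HTSeq and build hg19, with no annotation or strand setting for the counting. The authors deposited raw counts per gene symbol, 23228 genes and 5 rows that name no gene. Those rows held 38.8% to 40.5% of each file, mostly reads aligned to several places, and were left out.

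The fit used edgeR 4.0.16 in R 4.3.3 with TMM scaling, filterByExpr (14972 genes kept) and robust quasi-likelihood tests, two-sided, with Benjamini-Hochberg adjustment over all genes (threshold 0.05). The model held the shRNA group alone. It was tested on simulated data. Alternatives used DESeq2 1.42.0, limma 3.58.1 (voom), other scalings and filters, left-out libraries, a test against a 1.5-fold change and assumed variation of 10% or 20%, against an estimate of 2.99%. Replicates differed beyond counting noise (chi-square per degree of freedom 2.47 and 2.37). Each library counted as a sample, but this excess does not show that the duplicates were separate cultures. Exon lengths and hg19 coordinates came from GENCODE v44 lifted to GRCh37, and promoters from RefSeq on GRCh38.p14; the builds were not mixed.

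Members and lists were chosen with earlier results of these data known. The text names the 10 members, PELP1 and up to 3 called genes of largest change per list; other genes are marked as chosen otherwise. Host, marker and family genes are given for position or identity.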

Additional observations from a re-analysis of the deposited data

How the results depend on the processing

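No member changed direction under the alternatives tried, and 148 of 157 member values kept their side of the threshold. The 9 that did not were MMP2, TIMP1, TIMP2 and TIMP3 in the test against a 1.5-fold change and at an assumed variation of 20%, and MMP2 at 10% as well (adjusted p = 0.412). Members called higher numbered 1 in place of 3 in the test against a 1.5-fold change and 1 at 20%. Genes called fell to 1442 in the test against a 1.5-fold change (709 higher, 733 lower), to 4363 at 10% (2187 and 2176) and to 1325 at 20% (685 and 640). The first asks for a larger difference, and the others assume more variation than the estimate of 2.99%. With at least 5 CPM in 2 libraries, MMP1, MMP9 and MMP24 were not tested. Without 1 library at a time, the log2 fold change of MMP24 ranged from −0.592 to −0.325.

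The replicate numbers are shared between the groups, but nothing says that they pair the libraries. With a replicate block 8161 genes were called and members numbered 3 higher and 6 lower as before. Libraries numbered 1 deviated from their group means in opposite directions (r = −0.171 over 9999 genes), and with the crossed pairing, chosen after the data were seen, 9284 genes were called.

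Levels per kilobase depend on the length used. With canonical transcripts, chosen after the data were seen, TIMP1 stood at 146 with the PELP1 shRNA and 205 with the control shRNA in place of 77.4 and 109, and the TIMP sum stood at 1.39 and 1.38 times the MMP sum against 0.899 and 0.88. TIMP2, in place of MMP2, then stood first with the PELP1 shRNA, as it did with the longest transcript. Counts of 12 or 13 per library limit the precision of MMP1 and MMP9.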
